A study of Mus musculus with 24 samples.

Results

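The histone marks of 2 Prrx1 mutants of mouse embryonic fibroblasts (MEF) were compared directly, mutant against mutant. MEF KI carried an allele at the Prrx1 locus that the labels call KI_PRRX1. MEF SG carried a deletion made with a guide RNA. Every H3K27ac summit and every H3K4me3 region of the KI and SG lists was a member, 100137 of the 462996 listed in the series. There were 29325 H3K27ac summits in KI and 43019 in SG, and 13125 H3K4me3 regions in KI and 14668 in SG. An H3K27ac summit was called shared when the other mutant had a summit within 500 bp, and an H3K4me3 region when it met a region of the other mutant by at least 1 bp.

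The series holds 24 ChIP-seq samples of 3 kinds of cultured mouse fibroblasts, of which 4 libraries, 1 per mutant and mark, are the subject here. MEF WT, the control, carries the intact gene. The wild types (WT) of fibroblasts from mammary tumours (MMTV-CAF) and from skin wounds were used for reference. The study describes a knock-in mouse line, Prrx1tm1Jfm/Mmmh, with lacZ placed in frame in the homeodomain in exon 2 and crossed back to C57BL/6, and KI was read as this line because the labels do not spell it out. SG cells received Cas9 and a guide against Prrx1. Whether they were 1 clone or a pool, and whether MEF WT received a control guide, is not given in the labels. All 3 MEF genotypes were labelled C57BL/6, came from embryos of day 10 to day 13 and were made immortal with E6/E7 of human papillomavirus. Each group has 1 library, so no p-value is given, and allele, culture and library cannot be told apart. The 95% intervals beside shares (Wilson) cover counting over peaks only.

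Prrx1 is a paired-related homeodomain transcription factor of embryonic limb and facial mesenchyme, and of fibroblasts later on. H3K27ac, acetylation of histone H3 at lysine 27, marks active promoters and enhancers. H3K4me3, trimethylation at lysine 4, marks promoters, and wide H3K4me3 regions often lie on genes that define a cell's identity. Hox genes keep a record of where along the body and limb axes a fibroblast came from: distal HoxA and HoxD genes are used in the limb bud and at the rear of the body, whereas HoxB and HoxC genes are used mainly along the trunk.

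Sequences around H3K27ac summits of several positional genes, of 2 matrix genes (Smoc2 and Dcn) and of Prrx1 are shown first, since later paragraphs return to them. Each window reaches 100 bp to either side of the strongest summit of its class whose window overlaps no exon, which need not be the gene's strongest, and was read from NCBIM37, the build of the lists (mm9), on the plus strand. Capitals mark any of 7 short words that were searched on both strands (TAATTA for homeodomain factors, TGANTCA for AP-1, GGAATG for Tead, TTGCNNAA for C/EBP, CAGCTG for E-box factors, TGTGGT for Runx and CCGCCC for GC-box factors). The first 4 windows held a summit in KI only, the next 4 in SG only, and the last a summit of both mutants in an intron of Prrx1.
Hoxd13, 0.815 kb from its start, intergenic, chr2:74505452-74505652: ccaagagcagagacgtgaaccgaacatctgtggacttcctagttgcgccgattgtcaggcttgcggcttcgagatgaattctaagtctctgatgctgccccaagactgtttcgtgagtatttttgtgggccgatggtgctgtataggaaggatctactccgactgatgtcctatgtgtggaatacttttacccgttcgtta
Sall1, intron, chr8:91564912-91565112: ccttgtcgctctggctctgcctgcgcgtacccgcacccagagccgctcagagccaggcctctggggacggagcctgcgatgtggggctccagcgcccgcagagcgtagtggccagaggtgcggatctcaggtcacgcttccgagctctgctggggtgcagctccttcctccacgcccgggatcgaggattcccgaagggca
Tbx4, intron, chr11:85702294-85702494: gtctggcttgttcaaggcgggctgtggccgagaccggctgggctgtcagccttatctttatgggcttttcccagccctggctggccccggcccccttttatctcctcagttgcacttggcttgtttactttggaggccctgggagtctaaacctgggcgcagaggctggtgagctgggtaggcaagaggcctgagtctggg
Smoc2, intron, chr17:14476780-14476980: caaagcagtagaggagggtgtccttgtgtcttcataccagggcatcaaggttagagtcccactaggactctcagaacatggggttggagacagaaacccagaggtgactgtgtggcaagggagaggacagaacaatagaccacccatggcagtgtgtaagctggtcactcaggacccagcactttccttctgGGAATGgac
Hoxc9, intron, chr15:102807655-102807855: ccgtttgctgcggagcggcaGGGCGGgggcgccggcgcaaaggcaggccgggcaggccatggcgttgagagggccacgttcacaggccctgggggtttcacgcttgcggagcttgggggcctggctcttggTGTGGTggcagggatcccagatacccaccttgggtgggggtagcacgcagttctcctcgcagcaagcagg
Hoxb3, intron, chr11:96203246-96203446: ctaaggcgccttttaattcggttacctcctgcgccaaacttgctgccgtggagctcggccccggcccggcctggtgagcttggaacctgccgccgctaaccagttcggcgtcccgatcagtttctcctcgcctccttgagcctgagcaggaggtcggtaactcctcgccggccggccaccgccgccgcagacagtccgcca
Pitx1, intron, chr13:55930044-55930244: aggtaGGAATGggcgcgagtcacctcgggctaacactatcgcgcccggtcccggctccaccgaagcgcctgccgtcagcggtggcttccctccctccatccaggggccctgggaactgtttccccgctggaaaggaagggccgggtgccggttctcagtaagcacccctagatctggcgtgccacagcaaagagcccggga
Dcn, 0.357 kb from a start site, intergenic, chr10:96941788-96941988: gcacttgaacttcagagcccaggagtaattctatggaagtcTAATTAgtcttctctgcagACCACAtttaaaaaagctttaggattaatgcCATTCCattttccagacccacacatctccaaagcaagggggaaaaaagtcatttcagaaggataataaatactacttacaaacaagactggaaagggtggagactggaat
Prrx1, intron, chr1:165210935-165211135: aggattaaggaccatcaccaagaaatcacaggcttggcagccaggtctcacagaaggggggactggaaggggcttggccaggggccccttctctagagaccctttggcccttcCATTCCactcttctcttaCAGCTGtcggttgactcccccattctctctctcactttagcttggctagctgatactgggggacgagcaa
The KI windows had a −log10 p (the authors' peak score) of 25.01 at Hoxd13, 15.4 at Sall1, 11.8 at Tbx4 and 34.9 at Smoc2 in KI, and no summit within 500 bp in SG or WT. The SG windows had 31.2 at Hoxc9, 100 at Hoxb3, 41.01 at Pitx1 and 16.8 at Dcn in SG, none in KI, and 18.01, 52.1, 19.4 and 39.8 in WT. At the Prrx1 window the score was 33.9 in KI and 28.6 in SG, with no WT summit within 500 bp. A word in capitals is a match of letters and not a binding site.

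The lists differed in strength, and every comparison below carries that difference. H3K27ac summits had a median −log10 p of 11.9 in KI, 21.2 in SG and 18.5 in MEF WT. That of H3K4me3 regions was 9.94 in KI, 23.3 in SG and 28.6 in MEF WT. KI was thus the shorter and weaker list for both marks. A mark listed in KI only was missing from the longer list, whereas a mark listed in SG only was missing from the shorter one, and comparisons were therefore repeated with the SG list cut to the size of the KI list by −log10 p. The sequencing depth is unknown. Of all genes, 49.6% had H3K4me3 and 51.0% H3K27ac in both mutants. Among 11 fibroblast markers, 9 genes had H3K27ac in both mutants. The start sites of 7 of them had H3K4me3 in both, and those of Dcn, S100a4 and Thy1 in SG only, against 4.45% of all genes in SG only. With lists of equal size 1 of the 11 stayed in SG only (Thy1), against 3.23% of all genes, and Dcn and S100a4 had H3K4me3 in neither mutant. H3K4me3 lay in both mutants on 1 of 13 epithelial, 1 of 9 endothelial, 0 of 9 blood and macrophage, 0 of 7 skeletal muscle and 1 of 12 neural markers. It was in SG only at Cdh1, Flt1, Tal1, Neurog2 and Tubb3 and in KI only at Sox2, against 4.45% and 0.765% of all genes. In the same order of lists, H3K27ac lay on 5, 3, 2, 1 and 2 of these markers in KI and on 6, 6, 3, 2 and 3 in SG. On the Y chromosome, Uty and Ddx3y had an H3K4me3 region in both mutants and in MEF WT. Kdm5d had one in SG and MEF WT only, Eif2s3y in KI and MEF WT only, and Xist, the RNA gene of X inactivation, had 1 H3K27ac summit in KI and 0 in SG and MEF WT. The part of these differences in the comparison was not tested.

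At Prrx1 itself both mutants kept both marks. The gene (ENSMUSG00000026586.8) spans chr1:165175247-165243841 and is read from the minus strand. KI listed 13 H3K27ac summits and SG 16 in the gene and 10 kb around it, and 10 in each list lay within 500 bp of a summit of the other. The summit nearest the gene start had a −log10 p of 19.96 in KI, 113 in SG and 91.7 in MEF WT, whereas the summit of the window above, the strongest of KI in Prrx1, had 33.9 in KI and 28.6 in SG. The H3K4me3 region over the start was 4558 bp wide in KI, 7341 bp in SG and 8628 bp in MEF WT.

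KI had a further H3K4me3 region of 708 bp in Prrx1, at chr1:165191310-165192017, with a fold enrichment over input of 4.97 and a −log10 p of 7.22. It covered 47 bp of exon 2, the exon that receives lacZ in the mouse line the study describes. It was found in 1 of the 7 H3K4me3 lists of the series, that of KI. No H3K27ac summit of KI lay nearer to it than 11.7 kb. Its −log10 p was among the lowest 25% of the KI list, in the range where 82.3% of KI regions were shared with SG.

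**Figure D1:**
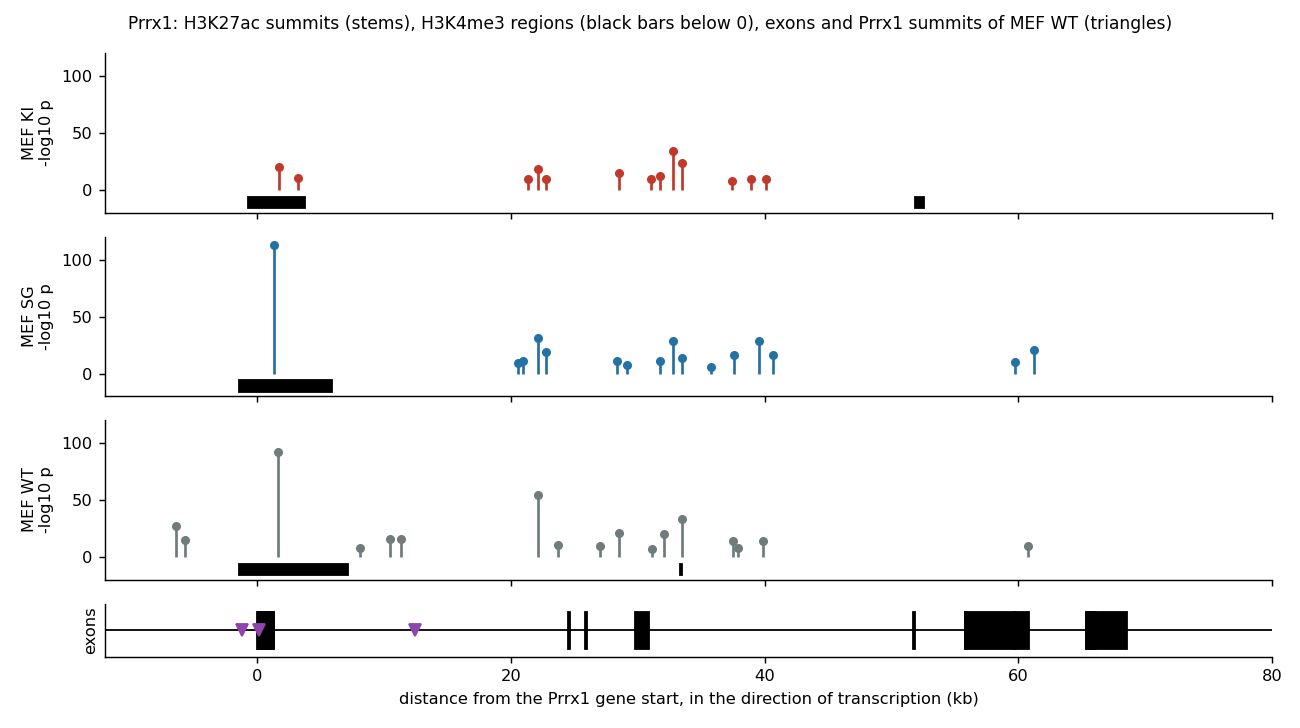
The Prrx1 gene in the 3 MEF genotypes, by distance from the gene start in kb. Stems are H3K27ac summits with their −log10 p, black bars below 0 are H3K4me3 regions, blocks in the lowest panel are annotated exons and triangles are Prrx1 summits of MEF WT. The KI panel alone has a bar 51.8 kb from the start, and its stem at the start is at 19.96 against 113 in SG.

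Over the whole genome the mutants shared most H3K4me3 and a smaller part of H3K27ac, under unlike criteria for regions (1 bp of overlap) and summits (500 bp). Of the KI summits 65.8% (95% interval 65.3% to 66.4%) were shared with SG, and of the SG summits 43.1% (42.6% to 43.5%) with KI. With both lists at 29325 summits the shares were 58.3% and 55.2%. Of the H3K4me3 regions 94.9% (94.5% to 95.3%) of KI and 79.4% (78.7% to 80.1%) of SG were shared, and 93.0% and 86.6% at equal size. The gap between the marks varied with the criteria. Within 1000 bp, 79.3% of KI and 51.1% of SG summits were shared. With an overlap of at least 50% of both regions, 76.7% of KI and 68.7% of SG regions were. Stronger peaks were shared more often. Over 4 equal bins of the SG summits, from weak to strong, the share went from 15.4% over 27.7% and 46.9% to 82.2%, and for SG H3K4me3 regions from 29.2% over 89.5% and 99.1% to 99.8%. In KI it went from 56.9% to 75.3% of summits and from 82.3% to 99.7% of regions. H3K27ac within 1 kb of a start site was shared more often (78.3% of KI, 59.7% of SG) than H3K27ac farther away (57.6% and 34.8%). Among chromosomes, Y left out, the share of KI summits found in SG ranged from 59.7% to 72.6%.

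SG shared more with MEF WT than with KI. With 5 lists of 29325 summits, SG and MEF WT shared 71.2% and 72.3% of their H3K27ac, KI and SG 58.3% and 55.2%, and KI and MEF WT 60.9% and 58.4%. The wild types of different fibroblasts lay between these values: MEF WT and wound-healing WT shared 64.3% and 65.0%, MEF WT and MMTV-CAF WT 62.7% and 61.8%. For H3K4me3 at 13125 regions, SG and MEF WT shared 95.9% and 95.5%, KI and SG 93.0% and 86.6%. KI also was the weaker list in each of its pairs, and the part of this in the lower shares was not tested.

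**Figure D2:**
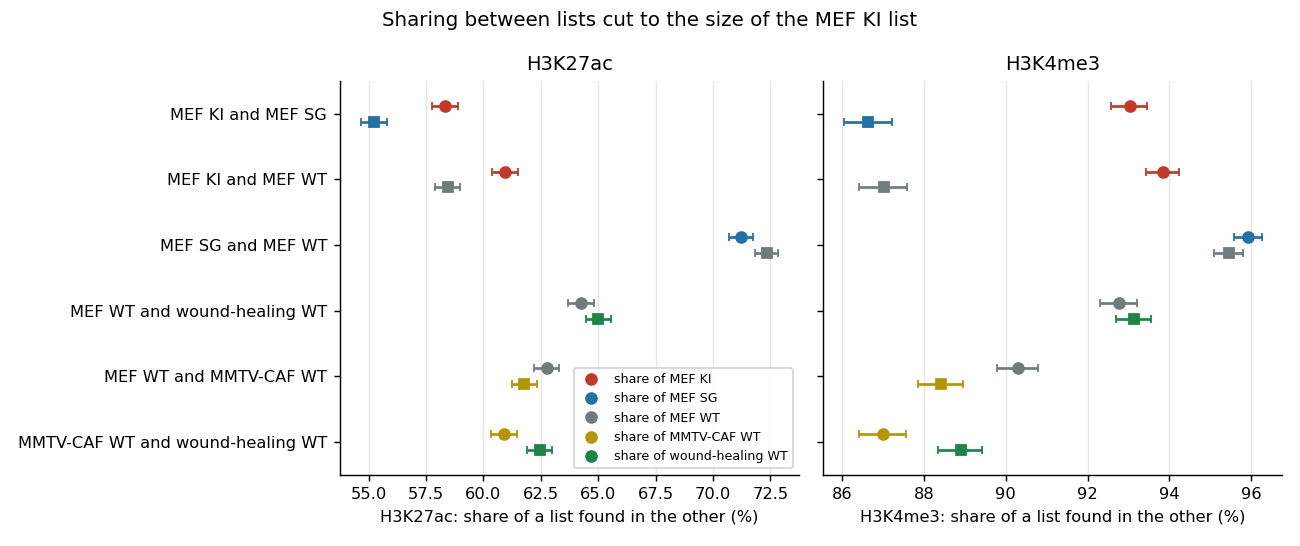
Share of each list found in the other, in percent, for 6 pairs of lists cut to the size of the MEF KI list. Circles give the share of the first list named and squares that of the second, colours the list, and bars the 95% interval over peaks. SG and MEF WT stand highest in both panels, and the H3K27ac pair of KI and SG stands lowest, at 58.3% and 55.2%.

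Marks in one mutant only were followed into the wild types. Of the 19308 KI summits shared with SG, 88.3% were also listed in MEF WT. Of the 10017 KI-only summits 33.2% (32.2% to 34.1%) were, and of the 24498 SG-only summits 56.1% (55.4% to 56.7%). At equal size the last 2 values were 38.7% and 72.6%. Most SG-only summits were thus listed in MEF WT, and most KI-only summits were not. H3K4me3 gave the same order, with 42.0% (38.4% to 45.8%) of 666 KI-only regions and 85.2% (83.9% to 86.5%) of 3021 SG-only regions in MEF WT. At equal size these shares were 55.6% and 95.1%, so that the KI-only regions found in MEF WT then were the larger part. The KI-only regions were found more often in MMTV-CAF WT (55.7%) than in MEF WT, in a list of 27339 regions against 16089. KI-only summits stood farther from start sites than shared ones, 25.2% against 47.2% within 1 kb, as did SG-only summits with 23.4%. A class of summits by position is narrow, since 39.3% of KI-only summits had an SG summit within 1000 bp and 66.1% within 5000 bp. For SG-only summits these shares were 14.2% and 39.0%.

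**Figure D3:**
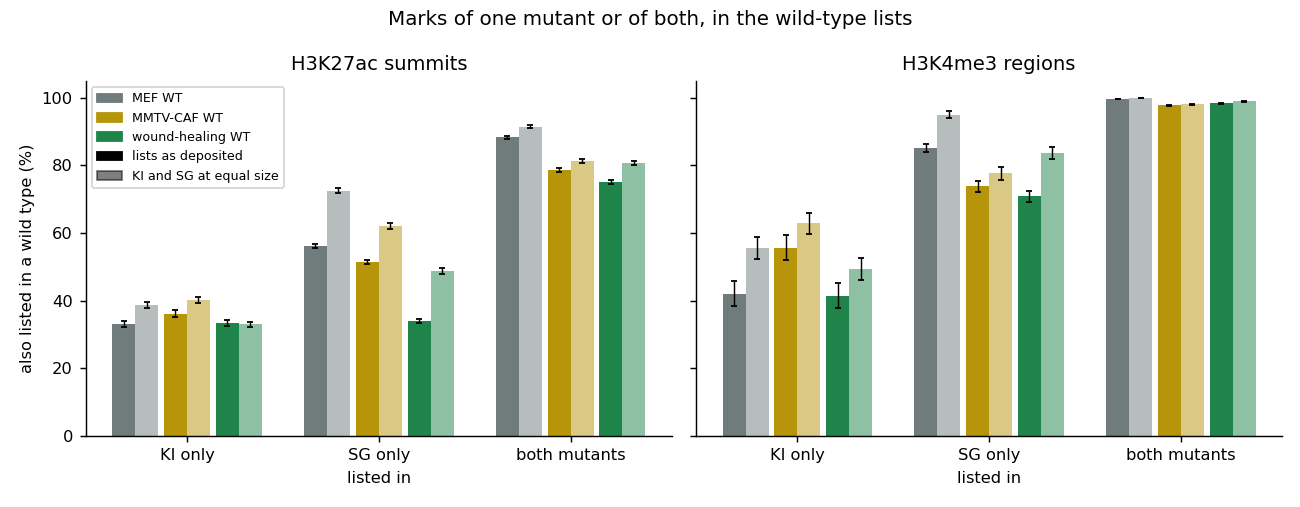
Percent of H3K27ac summits (left) and H3K4me3 regions (right) also listed in each wild type, for marks listed in KI only, in SG only or in both mutants. Solid bars use the lists as deposited, pale bars lists of equal size, and error bars are 95% intervals over peaks. KI-only bars are the lowest, 33.2% of H3K27ac and 42.0% of H3K4me3 in MEF WT.

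The strongest single peaks did not all mark different loci. The strongest KI-only summit, with 63.2, lay 1.05 kb from the start of Vmp1, a gene of autophagosome formation, and an SG summit lay 0.621 kb away. The others among the top 5 lay 138 kb from Foxa2, 84.6 kb from Ranbp3l, 1.45 kb from Klf6 and again at Vmp1, with 52.5 to 58.6 and an SG summit within 1.11 kb. SG-only summits mostly stood farther from the other list. The strongest, with 155, lay 1.04 kb from the start of Gpr149, an orphan receptor gene, and 97.2 kb from any KI summit. The next were 150 near Meis2 and 145 near Meis1, both TALE homeobox genes whose products pair with Hox proteins, then 144 at Vmp1 and 137 near Hoxc6. Their nearest KI summits lay 2.69, 4.08, 0.621 and 9.93 kb away. The strongest shared summits by KI score were near Rb1cc1 (71.0 in KI, 121 in SG), Cxcl1 (69.4 and 65.9), Ifit2 (65.9 and 67.8), Npy1r (64.2 and 40.9) and Cald1 (63.4 and 67.6).

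Protein-coding genes, 22225 in all, were then classed by each mark. H3K4me3 within 1 kb of a start site was listed in both mutants at 11022 genes, in KI only at 170 (0.765% of all genes) and in SG only at 990 (4.45%). With lists of equal size the counts were 245 (1.1%) and 718 (3.23%). H3K27ac in the gene or within 10 kb was listed in both mutants at 11341 genes, in KI only at 299 (1.35%) and in SG only at 2653 (11.9%). At equal size these counts were 453 and 2241. MEF WT had the H3K4me3 at 90 of the 170 KI-only genes and at 913 of the 990 SG-only genes. The marks came from separate libraries of each mutant. Among the 170 genes with H3K4me3 in KI only, 30.0% had H3K27ac in KI only and 2.35% in SG only. Among the 990 with H3K4me3 in SG only, 36.8% had H3K27ac in SG only and 1.31% in KI only. Both marks together were listed in KI only at 51 genes (0.229%) and in SG only at 364 (1.64%). With lists of equal size, 258 of the 364 SG-only genes kept that class. That setting shortens only the SG lists, so no KI-only gene could leave its class. The counts depend on the threshold. At a −log10 p of at least 10 for every peak, H3K4me3 was in KI only at 37 genes and in SG only at 4203, and 8 of the 51 and 176 of the 364 kept it.

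The KI-only genes with both marks were ranked by their H3K4me3 score. The 12 with the highest H3K4me3 score began with Ifi44 (19.3 in KI, none in SG, 30.1 in WT) and Oas1g (14.7, none, 15.8), both induced by interferon, and Trim12a (13.8, none, none). Then came Oas1a (13.5, none, 20.5), an antiviral oligoadenylate synthetase, Hoxd12 and Hoxd13, which share 1 region (10.6, none, none), and Trim30a (10.5, none, 16.9). I830012O16Rik had 10.2 in KI and 13.8 in WT, Ripk4, a kinase of epidermal differentiation, 9.83 and none, and Mab21l1 9.29 and none. D14Ertd668e (9.08, and 11.5 in WT) and Ddit4l, an inhibitor of mTORC1 (8.95, and 6.86), closed the group. Oas1, Trim and Ifit genes belong to families of similar copies, so reads could be placed on the wrong member. Farther down were Sall1, a zinc-finger factor of limb and kidney, Sox6 and Sox2, Hgf, the hepatocyte growth factor, Enpp2, which makes lysophosphatidic acid, and Tbx4, the T-box factor of the hindlimb. Sall1 had 9 H3K27ac summits in KI and 0 in SG and WT, Sox6 8, 0 and 2, Enpp2 6, 0 and 0, Sox2 4, 0 and 0, Hgf 3, 0 and 0, and Tbx4 3, 0 and 0.

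The SG-only genes were mostly wild-type genes that KI did not list. Gpr149 led with an H3K4me3 score of 35 in SG, none in KI and 34.2 in WT, followed by Dhx34, an RNA helicase of nonsense-mediated decay (32.0, none, 31.2), and Oscar (30.1, none, 36.7). Then came Hoxb2 (28.9, none, 38.2), Hoxb9 (28.8, none, 26.0), H60b, a ligand of natural killer cell receptors (28.5, none, 30.4), and Ptgis, prostacyclin synthase (28.4, none, 40.8). Trhde (27.4), 2310002L13Rik (27.3), Hoxc5 (27.01), Adrb1, the beta-1 adrenergic receptor (26.3), and Kif7, a kinesin of Hedgehog signalling (25.3), completed the 12. In WT these 5 scored 29.8, 5.86, 34.1, 32.8 and 31.5. Of the 364 genes, 347 had H3K4me3 in MEF WT and 242 had both marks. Of the 51 KI-only genes these counts were 29 and 15, and 18 had neither mark in MEF WT.

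**Figure D4:**
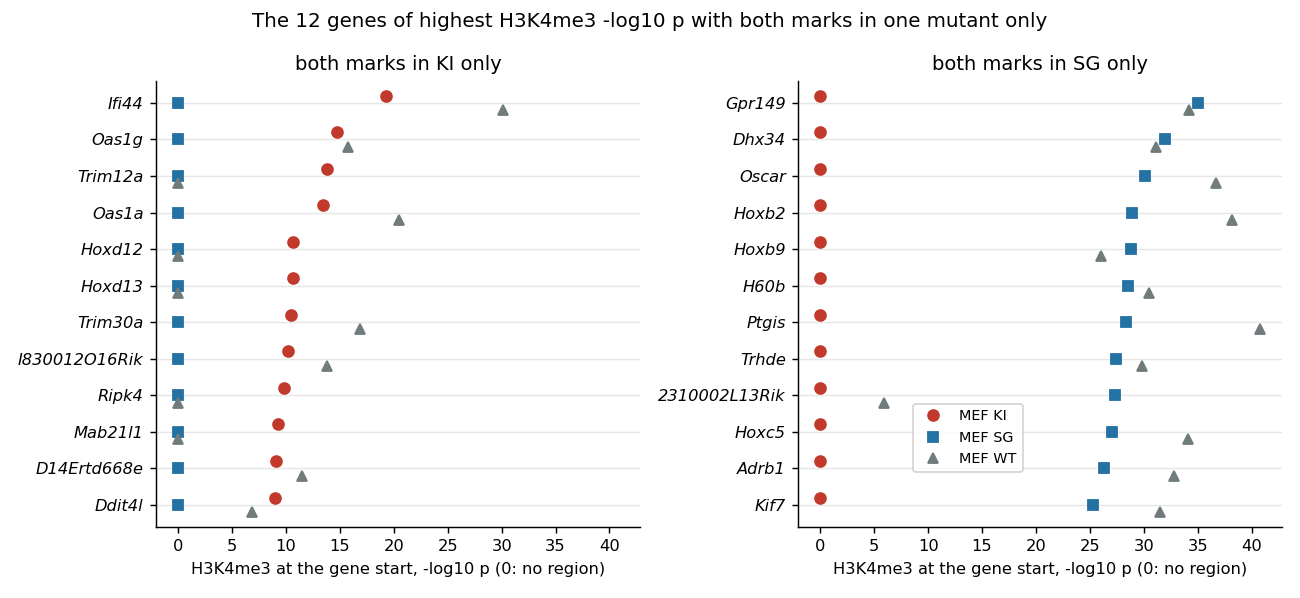
H3K4me3 −log10 p at the gene start in KI (circles), SG (squares) and MEF WT (triangles) for the 12 genes of highest score with both marks in KI only (left) and in SG only (right). A value of 0 means that no region was listed. All 12 genes on the right have a WT triangle above 0, and 7 of 12 on the left.

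Hox genes split by cluster. The HoxC cluster (chr15:102741534-102877274, 10 kb on each side included) held 0 H3K4me3 regions and 1 H3K27ac summit in KI, 12 regions and 11 summits in SG, and 14 and 8 in MEF WT. HoxB had 4 regions and 1 summit in KI against 14 and 21 in SG and 17 and 25 in MEF WT. HoxD went the other way, with 10 regions and 19 summits in KI, 5 and 6 in SG, and 5 and 9 in MEF WT. HoxA was listed alike by count, with 14 regions and 30 summits in KI, 17 and 29 in SG, and 20 and 31 in MEF WT. By start site, beside 0.765% of all genes in KI only and 4.45% in SG only, H3K4me3 was in KI only at 1 of 11 HoxA, 0 of 10 HoxB, 0 of 9 HoxC and 3 of 9 HoxD genes, and in SG only at 2, 5, 7 and 0. At equal size SG-only starts were 2, 4, 4 and 0 and KI-only starts 2, 0, 0 and 3.

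Marks in KI and not in SG lay at the distal end of HoxD and of HoxA, while KI also had marks along the rest of HoxA. Hoxd13, Hoxd12 and Hoxd11, which pattern digits and forearm, had H3K4me3 regions of 5814, 5814 and 6024 bp in KI and none in SG or MEF WT. Their H3K27ac summits numbered 12, 11 and 12 in KI, 0, 0 and 1 in SG, and 0 in MEF WT, counts that overlap because the genes are neighbours. Wound-healing WT had H3K4me3 regions of 658 bp at Hoxd13 and 1055 bp at Hoxd11, without H3K27ac summits there. It had H3K4me3 at 7 of 9 HoxD genes, as did KI. Evx2, beside Hoxd13, had a region of 5895 bp and 8 summits in KI and neither in SG. Hoxa11 had 6662 bp in KI, none in SG and 655 bp in MEF WT, but H3K27ac in all of them, with 14, 3 and 1 summits. Hoxa13 had 4890, 1162 and 635 bp, with 5, 0 and 0 summits. At the proximal end of HoxD, Hoxd3 was 885 bp wide in KI, 1927 in SG and 5597 in MEF WT, with 0, 4 and 8 summits. With 10 kb around each gene counted, KI listed H3K27ac summits from Hoxd9 to Evx2, and SG and MEF WT from Hoxd3 to Hoxd10. SG had 1 more near Hoxd11. A summit counted this way need not lie on the gene. The KI cluster there, chr2:74494472-74530840, ended before Hoxd9, and MEF WT had no summit within 10 kb of Hoxd11.

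SG listed HoxB and HoxC much as MEF WT did. Hoxc6 had an H3K4me3 region of 8174 bp in SG and 8479 bp in MEF WT, Hoxc8 of 3545 and 3903 bp, Hoxc5 of 2043 and 2575 bp, and none in KI. Hoxc8 had the seventh strongest of the 3021 SG-only regions, with a −log10 p of 34.4, at the 88.3rd percentile of the SG list. Hoxb2 (4063 bp in SG, 4126 in WT), Hoxb9 (2106, 2510), Hoxb8 (5664, 5641) and Hoxb3 (2079, 2242) also had none in KI. Hoxb6 was listed in all, with 3008 bp in KI, 4340 in SG and 4431 in WT. MMTV-CAF WT listed H3K4me3 at 9 of 9 HoxC and 8 of 10 HoxB genes and wound-healing WT at 8 and 8, so that among these 5 lists KI alone had fewer than 7 in either cluster.

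**Figure D5:**
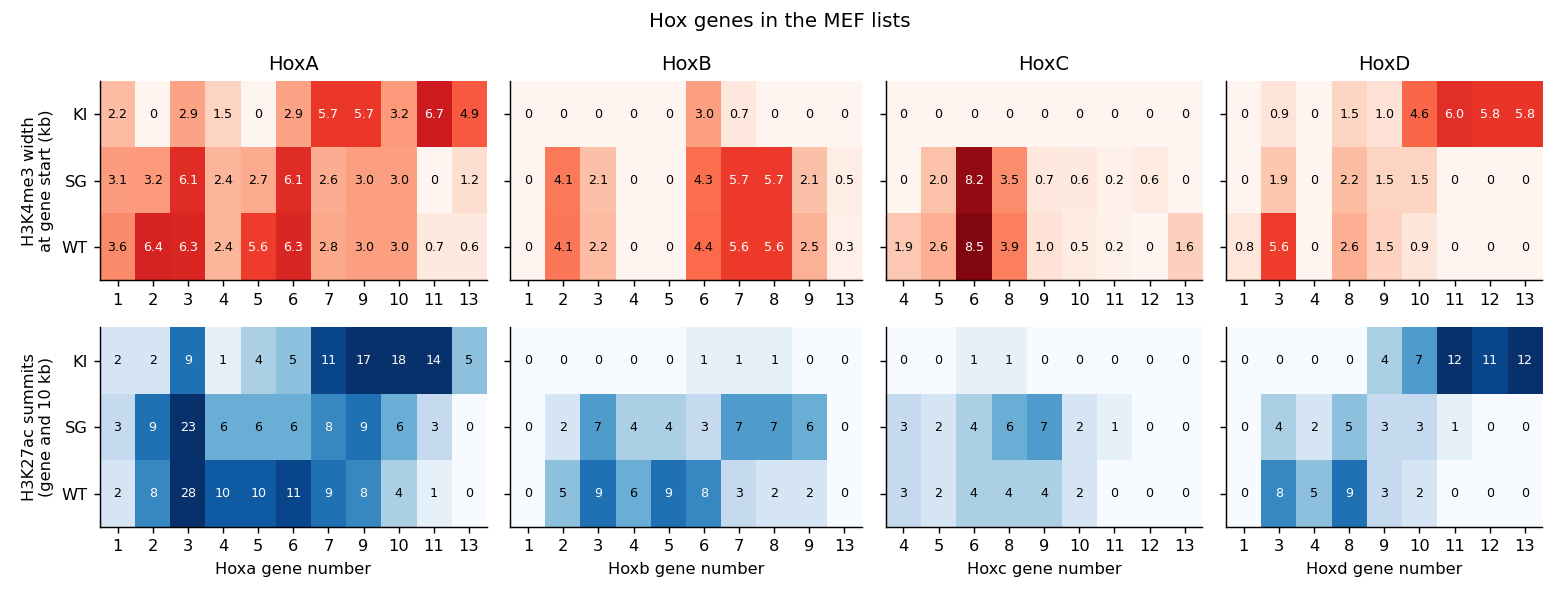
Hox genes in KI, SG and WT MEF, each cluster in the order of gene numbers. The upper row gives the width of the H3K4me3 region at the gene start in kb and the lower row the number of H3K27ac summits in the gene and 10 kb around it, with 0 where none was listed. KI is at 0 over all HoxC H3K4me3 and has its widest regions at Hoxa11 and Hoxd11 to Hoxd13.

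Other regional factors were counted beside the shares of all genes with H3K4me3 in KI only (0.765%) and in SG only (4.45%). Among 54 of them outside the Hox clusters, 29 had H3K4me3 in both mutants, 4 in KI only (Sim1, Tbx4, Nkx3-2, Dlx5) and 5 in SG only (Pitx1, Sim2, Wt1, En2, Zic1). At equal size these counts were 6 in KI only and 4 in SG only, against 1.1% and 3.23% of all genes. H3K27ac was in KI only at 3 (Tbx4, Pax9, Zic1) and in SG only at 9, against 1.35% and 11.9%. The 2 marks thus went opposite ways at Zic1. Pitx1, a hindlimb homeobox factor, had 3958 bp and 5 summits in SG, 4003 bp and 3 summits in MEF WT, and neither in KI. Tbx4, a hindlimb factor too, had 850 bp and 3 summits in KI and neither in SG or MEF WT. Sim2 had 2863 bp in SG and 3006 bp in MEF WT, and Wt1, a factor of kidney and body-cavity lining, 2929 and 3685 bp. Pax9, a factor of sclerotome and tooth mesenchyme, was listed in all 3 but was 4724 bp wide in KI, 400 bp in SG and 338 bp in MEF WT, with 5, 0 and 0 summits. Tbx15, a T-box factor of limb and skin mesenchyme, was 8902, 2416 and 2560 bp wide, with 10, 2 and 3 summits. Of 21 Prrx and other paired-related homeobox genes, 8 had H3K4me3 in both, 0 in KI only and 2 in SG only, Alx1 and Pitx1.

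Transcription factors of mesenchyme and ribosomal protein genes were marked in both mutants. Of all genes, 49.6% had H3K4me3 and 51.0% H3K27ac in both. All 18 transcription factors that the study named as candidate master regulators of MEF had both marks in both mutants, as did 9 of 9 mesenchymal transition factors and 22 of 22 ribosomal protein genes. The study picked the candidate regulators through super-enhancers mapped by H3K27ac in fibroblasts with intact Prrx1, so MEF WT is not independent of that choice. At these 18 factors the H3K4me3 width had a median of 2804 bp in KI, 4961 bp in SG and 5546 bp in MEF WT, and at the ribosomal protein genes 2752, 3126 and 3460 bp. Twist1, a mesenchymal basic helix-loop-helix factor, measured 2364, 5413 and 7944 bp, and Prrx2, the closest relative of Prrx1, 1810, 2241 and 2453 bp. Across all 11022 genes marked in both, the median width was 1719 bp in KI and 2138 bp in SG.

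Matrix, growth factor and lineage genes were counted in the same way, beside 0.765% of all genes with H3K4me3 in KI only, 4.45% in SG only and 49.6% in both. With lists this short, 1 gene is already above the first share. Of 22 fibrillar collagen and elastic fibre genes, 13 had H3K4me3 in both, 1 in KI only (Fbn2) and 3 in SG only (Loxl2, Col2a1, Col27a1). Of 24 basement membrane and matricellular genes, 13 were in both, 3 in KI only (Ogn, Col14a1, Thbs2) and 1 in SG only, Dcn. Dcn encodes decorin, a collagen-binding proteoglycan, and had 1405 bp in SG and 1956 bp in MEF WT. With lists of equal size its SG region, at a −log10 p of 5.01, was no longer listed. Of these and the following lists, SG-only counts at equal size were 2 (collagen), 0 (matricellular), 3 (PDGF, FGF and HGF), 3 (Wnt), 2 (contractile) and 3 (skeletal and adipose). Among 25 PDGF, FGF and HGF genes, 16 were in both, Hgf was in KI only (2639 bp, and 900 bp in MEF WT), and Igfbp3, Fgf18, Pdgfb and Fgf5 in SG only. Among 31 Wnt genes, 12 were in both, Wnt10b and Dkk3 were in KI only and Lgr5, Wnt7b, Wnt4, Wnt7a and Wnt11 in SG only. Wnt7a had 7 H3K27ac summits in SG, 0 in KI and 1 in MEF WT. Of 24 myofibroblast contractile genes, 17 were in both and 2 in SG only (Lmod1, Fap). Of 25 skeletal and adipose regulators, 12 were in both, Sox6 was in KI only and Ebf2, Lpl and Comp in SG only. AP-1, Tead and Kruppel-like factors were in both at 27 of 28 genes.

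Interferon-induced genes were listed after the values were seen, so their counts are a description of that choice. Of 39 such genes, beside 0.765% of all genes in KI only and 4.45% in SG only, 25 had H3K4me3 in both mutants, 8 in KI only (Rsad2, Ifit3, Ifi44, Gbp6, Oas1g, Oas1a, Trim30a, Trim30d) and 2 in SG only (Dhx58, Oasl1), and 35 had it in MEF WT. At the 25 genes in both, the median width was 2515 bp in KI, 1792 bp in SG and 2875 bp in MEF WT. Here SG stood farther below the wild type than KI did. Ifit3 measured 2315 bp in KI and 3553 bp in MEF WT, and Rsad2, which encodes viperin, 1466 and 2757 bp, with no region in SG. Limb bud patterning genes were listed in the same way. Of 33, H3K4me3 was in both at 13, in KI only at 9 (Tbx4, Evx2, Hoxd11 to Hoxd13, Hoxa11, Bhlhe22, Dlx5, Sall1) and in SG only at 4 (Sp8, Pitx1, Fgf8, Sp9).

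Clusters of H3K27ac, summits stitched where neighbours lay close together, gave loci with H3K27ac listed in one mutant alone. Of 3409 KI clusters with at least 3 summits, 206 (6.04%) had no SG summit in or within 500 bp of them, and of 5201 SG clusters 963 (18.5%) had no KI summit. With lists of equal size these counts were 331 and 364. MEF WT had a summit in 90 of the 206 (43.7%) and in 874 of the 963 (90.8%). The KI-only cluster with the highest summed −log10 p, 137, held 9 summits over 16.4 kb at Eya4, a transcriptional co-activator, with 0 summits of MEF WT. The next 7 lay 41.3 kb from Gm10320, at Kcnj15, in Smoc2, 131 kb from Ttc35, at Slco1a6, 243 kb from Oca2 and 25.5 kb from Ccbe1, with sums of 104 to 132. Smoc2, a calcium-binding matrix protein of limb and gonad, had 5 summits over 3.86 kb with 1 in MEF WT.

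The leading SG-only clusters were also listed in the wild types. The first 8 lay at Adrb1, Hoxb2 to Hoxb5, Ptgs1, Pdpn, Cbx2 and Cbx8, Col4a1, Ptgis and Gas7, with sums of 469 to 291. Ptgs1 encodes cyclooxygenase-1 and Pdpn podoplanin, a surface protein of reactive fibroblasts. The Ptgs1 cluster held 13 SG summits and no KI summit, and the WT lists had 14 (MEF), 15 (MMTV-CAF) and 17 (wound healing) there. The Pdpn cluster held 11 SG summits, and 10, 9 and 10 of the WT lists. Each of the 8 held at least 4 summits of MEF WT.

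Among the 500 clusters of highest summed −log10 p in each list, 223 of KI (44.6%, 40.3% to 49.0%) met one of the 500 of SG, and 222 of SG one of KI. For MEF WT the counts were 249 for KI and 324 for SG. Of the 500 of KI, 490 met some cluster of SG. The KI cluster of rank 2, 32 summits over 67.0 kb in Tprg, met 6 summits of SG, in clusters of rank 13042 at best, and clusters of rank 2539 at best in MEF WT. Rank 13 at Ccdc80 (22 summits) met rank 5225, and rank 15, from Evx2 to Hoxd10 with 20 summits, met rank 693. Rank 18, 153 kb from Thbs1 with 17 summits, met rank 1505 with 7 SG summits. Rank 22 at Stard13 lay just outside the limit in SG, at rank 572 with 25 summits against 14 in KI, and at rank 404 in MEF WT. In SG, rank 4 at Socs3, a feedback inhibitor of cytokine signalling (22 summits), met rank 1578 in KI and rank 27 in MEF WT. Rank 11 at Shb met 1252, rank 18 at Sorbs3 and Pdlim2 met 1861, rank 19 at Bbc3 met 663 and rank 20 at Sipa1l3 met 3569. Strong in both were Vmp1 (rank 1 in KI, 5 in SG), a HoxA stretch (6 and 2, chr6:52161504-52211152 in KI and chr6:52108054-52190305 in SG, the latter ending before Hoxa11), a stretch next to Mtap (8 and 9), Rb1cc1 (10 and 7) and Mrpl33 (7 and 13).

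Wide H3K4me3 regions lay at shared places but differed in width. Regions over 4 kb numbered 320 in KI and 700 in SG, and 97.2% and 99.0% of them met a region of any width in the other mutant. Of the KI regions 80.9% (76.3% to 84.9%) met one over 4 kb in SG, and of the SG regions 37.0% (33.5% to 40.6%) one in KI. With the 320 widest of each list the share was 54.1% both ways. Among the 320 widest of KI and not of SG were Tbx15 (8902 bp), Trps1 (8757 bp against 3996 in SG), Fgf7 (8727 against 4740), Col5a2 (8144 against 4304) and a region off any start site at chr5:100853063-100859780 (6718 bp). Among those of SG were Emx2 (12642 bp against 3977 in KI), Pcdh7 (10208 against 2140), Pcdh19 (10034 against 2675), Setd1b (9952 against 3604) and Gpr149 (9308, none in KI).

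At starts marked in both, the log2 ratio of KI to SG width had a median of -0.27, and widths were compared with that median. Over 2-fold wider in KI than the median gene were 122 genes (1.11%), and over 2-fold wider in SG 634 (5.75%). The largest ratios towards KI were at Lrrc7 (2798 bp in KI, 217 in SG, 585 in WT), Pax9, Rnf151 (3617, 453, 621), Tnfrsf11b, which encodes osteoprotegerin (2033, 274, 809), and Fhit (1577, 217, 1489). Those towards SG were at Fmn1, a formin of limb development (280 bp in KI, 5373 in SG, 5816 in WT), Mdga1 (227, 3225, 3543), Zic2 (287, 3363, 3356), Mycn (328, 3773, 2811) and Eno3 (712, 8105, 8117). Rspo2, an activator of Wnt signalling in limb buds, measured 5254, 867 and 2641 bp, and Nog, the BMP antagonist noggin, 515, 5713 and 2597 bp.

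Among single H3K4me3 regions, the 5 strongest of KI only began with Ifi44 (fold 9.01). The others lay at chr9:103115083-103115635, chr4:146817550-146817853, chr4:145175342-145175656 next to Gm13212, and chr6:149514105-149515375, with −log10 p of 15.4 to 16.8, and each met a MEF WT region. The 5 strongest of SG only, with 36.9 to 44.5, were at chr8:20019553-20020463, chr8:19892373-19893158, chr8:93410860-93411373, chr8:19784560-19785470 and chr4:133715753-133716520. They met no gene start and were all listed in MEF WT. Of the 14 KI regions on the Y chromosome 2 were shared with SG, which had 3.

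Few H3K27ac summits of any class lay near a Prrx1 summit of MEF WT. That list held 3048 summits, which limits the shares, and no background share was taken. A Prrx1 summit lay within 500 bp of 1.13% (0.939% to 1.35%) of KI-only, 0.910% (0.799% to 1.04%) of SG-only and 1.18% (1.03% to 1.34%) of shared summits. These 3 intervals overlap with shared summits taken at KI positions. At SG positions the shared class had 1.20% (1.06% to 1.37%), an interval above that of SG-only summits. Of the searched words, TAATTA, the core of homeodomain sites, lay within 100 bp of 2.76% (2.41% to 3.16%) of KI-only, 2.38% (2.17% to 2.61%) of SG-only and 2.59% (2.30% to 2.92%) of shared distal summits, against 5.67%, 5.14% and 5.87% of positions 2 kb to either side. TGANTCA, the AP-1 site, gave 5.02%, 4.93% and 4.81%, against 6.5%, 6.6% and 6.6% of the flanking positions. GGAATG, the Tead site, gave 11.5%, 11.1% and 12.1%, against 11.2%, 10.9% and 11.0%. CAGCTG, an E-box, gave 12.2%, 14.4% and 14.0%, against 8.99%, 9.94% and 9.45% of the flanking positions. CCGCCC, a GC box, gave 4.07%, 5.85% and 5.84%, against 4.11%, 4.05% and 3.17% of the flanking positions. TTGCNNAA, a C/EBP site, gave 7.05%, 6.65% and 7.57%, against 8.45%, 7.70% and 8.07% of the flanking positions. TGTGGT, a Runx site, gave 15.6%, 16.0% and 15%, against 14.38%, 15.65% and 15.04%. GC content was 49.1% around KI-only, 51.1% around SG-only and 50.5% around shared summits, and its part in the word shares was not tested.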

How the data were processed

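H3K27ac, H3K4me3 and, in the wild types, Prrx1 were measured by ChIP-seq, 1 library per group and mark. Per the study's methods, the authors used Trimmomatic for trimming, Bowtie for alignment (mm9), Picard to drop duplicates, and MACS2 with the input of the same cells for 1 peak list per library. Deposited H3K27ac lists hold 1-bp summits with the −log10 p. Deposited H3K4me3 lists hold broad regions with the fold enrichment (ratio) over input, the −log10 p and the −log10 q. These scores grow with sequencing depth, which is unknown here. They set the order of peaks within a list, and scores printed side by side for different lists are not on a common scale.

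Lists were compared by summit distance (500 bp) or overlap (1 bp), as deposited and cut to equal size. Genes were the 22225 protein-coding symbols of the NCBIM37 annotation. H3K4me3 was counted within 1 kb of a start site, H3K27ac in the gene and 10 kb around it. Summits were stitched within 12.5 kb. Python 3.11.15, numpy 2.4.6, pandas 2.3.3 and matplotlib 3.10.9 were used, and the scripts were tested on simulated data. Alternatives were other distances, an overlap of 50%, a −log10 p of at least 10 and other stitching. Genes named were Prrx1, members of the lists marked in 1 mutant, and the top 12 (both marks), 8 (exclusive clusters) or 5 (other rankings) per direction. Other members are named for their biology and were chosen after their values were seen. Members and lists were chosen with earlier results of these data known.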

Additional observations from a re-analysis of the deposited data

How the results depend on the processing

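No paired analysis was possible because each group has 1 library. Under the alternatives run, 48 values moved and 16 did not, and the cause was not tested. Under the equal-size, −log10 p, distance and overlap settings, MEF WT listed a smaller share of KI-only than of SG-only H3K27ac summits and H3K4me3 regions. With lists of equal size, 58.3% of KI and 55.2% of SG summits were shared, and MEF WT listed 38.7% of KI-only, 72.6% of SG-only and 91.5% of shared summits. For H3K4me3, 93.0% of KI and 86.6% of SG regions were then shared, with 55.6% of KI-only and 95.1% of SG-only regions in MEF WT. H3K27ac was in KI only at 453 genes, and clusters in one mutant only numbered 331 in KI and 364 in SG. At a −log10 p of at least 10, 68.1% of KI and 34.9% of SG summits were shared, with 88.8% of shared and 60.01% of SG-only summits in MEF WT. The H3K4me3 shares were 98.9% of KI and 55.8% of SG, with 50.7% of KI-only and 98.1% of SG-only regions in MEF WT. The counts were 37 and 4203 gene starts with H3K4me3 in KI or SG only, 4276 genes with H3K27ac in SG only, 14 and 1851 genes with both marks in KI or SG only, and 99 KI-only clusters. Within 1000 bp, 79.3% of KI and 51.1% of SG summits were shared, and MEF WT listed 34.1% of KI-only, 65.5% of SG-only and 93.2% of shared ones. Within 250 bp these values were 58.0%, 39.5%, 29.4%, 50.9% and 85.0%. With an overlap of at least 50% of both regions, 76.7% of KI and 68.7% of SG regions were shared, with 13.9% of KI-only and 74.3% of SG-only regions in MEF WT. With the region over the start site, 2369 starts had H3K4me3 in SG only. With summits within 1 kb of a start site, 181 genes had H3K27ac in KI only. Stitching within 5 kb left 32.2% of KI and 31.2% of SG strong clusters in common. Of wide H3K4me3 regions, 54.1% met with equal numbers of the widest, and 65.1% of KI and 58.0% of SG with the widest 5%. Depth is unknown, each allele rests on 1 library per mark, and a mark that is not listed may lie under the threshold of the peak caller.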
